A study of Mus musculus with 22 samples.

Results

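Visible T-cell lymphomas of Atm-deficient mice were set against thymi in which no tumour was seen but which carried at least 1 of the tumours' lead changes on chromosomes 12 and 14. Of 22 arrays in the series, 12 were compared. The first side holds all 8 arrays titled as lymphoma. The second side holds 4 of the 14 arrays titled as macroscopically without findings. A thymus without findings was taken when its median log2 ratio reached 0.25 or more over chromosome 14 from 40 to 47 Mb, or -0.25 or less over chromosome 12 between 114003053 and its last probe at 117798928. The 4 mice that met this rule are numbers 2, 9, 11 and 14 of the thymi without findings, counted in accession order, and are called thymi 2, 9, 11 and 14 here. The 8 lymphomas are numbered 1 to 8 in the same way. The other 10 thymi without findings serve as the background range.

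Genomic DNA of thymocytes from each Atm-deficient mouse, labelled with Cy5, was hybridised together with Cy3-labelled wildtype thymocyte DNA on a mouse genome CGH array. Array CGH reads DNA copy number as the ratio of the dyes at each probe, and a log2 ratio of 0 means the same copy number as the wildtype DNA. All mice were untreated and all carried the Atm deficiency, and the labels give no strain, age, sex, altered exon or day of death. Each array is 1 mouse. The labels do not say how many cells of a thymus were tumour cells, and they do not say which wildtype animals gave the reference.

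The Atm kinase relays the alarm when both strands of DNA break, and thymocytes make such breaks on purpose when V(D)J recombination joins the gene segments of their antigen receptors. Mice without Atm are known for thymic lymphomas with translocations that start in the T-cell receptor alpha/delta locus (Tcra/Tcrd) on chromosome 14, often joined to chromosome 12, and for gains of chromosome 15. Bcl11b on chromosome 12, Notch1 and Ikzf1 are among the genes whose dosage is often altered in T-cell leukaemia and lymphoma.

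Probes that carry the changes described here were read from the array files and are shown because each marks a change that the sides share or do not share. For a gene, the probe nearest to the middle of its probes was taken, and for Notch1 the neighbours astride the sharpest step in lymphoma 1. All are printed 5′ to 3′ as the files hold them, in lower case with no letter marked.
Gnpnat1 probe: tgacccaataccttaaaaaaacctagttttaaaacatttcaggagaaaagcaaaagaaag
Nrg3 probe: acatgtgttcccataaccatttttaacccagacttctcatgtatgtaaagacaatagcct
Bcl11b probe: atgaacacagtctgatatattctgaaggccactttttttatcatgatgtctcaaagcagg
Sp4 probe: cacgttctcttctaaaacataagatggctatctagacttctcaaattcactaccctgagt
Ncstn probe: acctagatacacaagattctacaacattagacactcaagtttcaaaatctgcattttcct
Ikzf1 probe: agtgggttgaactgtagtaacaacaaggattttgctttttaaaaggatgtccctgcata
Notch1 probe at 26501891: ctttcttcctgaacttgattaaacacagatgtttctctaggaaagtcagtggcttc
Notch1 probe at 26508889: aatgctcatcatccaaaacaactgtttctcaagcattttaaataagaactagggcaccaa

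The probes lie at chr14:40701918-40701977 (Gnpnat1), chr14:36341731-36341790 (Nrg3), chr12:105483764-105483823 (Bcl11b), chr12:116057268-116057327 (Sp4), chr1:172046186-172046245 (Ncstn), chr11:11678128-11678186 (Ikzf1), chr2:26501891-26501946 and chr2:26508889-26508948 (Notch1). Coordinates are those of the array files, and their genome build was not given in the sources used here. The Gnpnat1 probe read 2.92 ± 0.56 (SD, n = 8) in the lymphomas and 0.02, 0.77, 1.86 and 2.22 in thymi 2, 9, 11 and 14. The Sp4 probe read -0.96 ± 0.24 (SD, n = 8) in the lymphomas and -0.58, -0.32, -0.66 and -0.18 in the same thymi. Single probes scatter, so the results rest on means of genes and of segments. At the Nrg3 probe, for example, thymus 11 read 1.29, while the mean over the gene was 0.33.

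The values that chose the thymi are a description and carry no test. Over chromosome 14 the medians were 1.29, 2.39, 1.14, 1.87, 1.66, 2.06, 2.10 and 1.14 in lymphomas 1 to 8, and -0.01, 0.83, 1.41 and 0.49 in thymi 2, 9, 11 and 14. Over chromosome 12 they were -0.36, -0.95, -0.90, -1.0, -0.98, -0.84, -0.90 and -0.90 in the lymphomas, and -0.44, -0.29, -0.67 and -0.21 in the thymi. Thymi 9 and 11 met both limits, thymus 14 met the chromosome 14 limit only and thymus 2 the chromosome 12 limit only. All 8 lymphomas would have met both. Just outside the limits lay thymus 7 with -0.19 on chromosome 12 and thymus 12 with 0.18 on chromosome 14. Thymus 1 had the opposite sign at both places, with -0.45 on chromosome 14 and 0.49 on chromosome 12, and stayed with the other 10 under its labelled dye direction. With its sign turned it would meet both limits. At the Atm probe described next it read -1.08, opposite to the lymphomas, so the background range and counts over the other 10 hold for its labelled direction.

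Noise between neighbouring probes was 0.15 to 0.25 on 10 of the 12 arrays and was higher in lymphoma 3, with 0.37, and in thymus 9, with 0.51. The arrays of lymphoma 3 and thymus 9 correlated at -0.41 over all probes, the only pair of the 66 below -0.3, and the labelled dyes were kept. By the scan batches in the file headers, lymphomas 1, 3 and 4 shared batch 1 with thymus 2, and lymphoma 8 shared batch 5 with thymi 11 and 14. Thymus 9 shared a batch with none of the lymphomas, and its array correlated at 0.82 and 0.87 with those of thymi 3 and 4 of the background, which were scanned in another batch and were as noisy. Thymus 14 correlated at 0.82 with thymus 7 of the background, scanned in the same batch. The differences in the chromosome 15 median, in altered, gained and lost DNA and in the number of segments are also given without thymus 9. Elsewhere thymus 9 is included, or left out only within a range over arrays left out 1 at a time. At the single Atm probe that departs from the wildtype level, lymphomas read 1.17 ± 0.14 (SD, n = 8) and thymi 2, 9, 11 and 14 read 1.08, 1.69, 0.99 and 0.67. The other 11 Atm probes had lymphoma means between -0.08 and 0.25.

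The chromosome 14 gain was the highest recurrent change of the lymphomas by its mean over them, and 3 of the 4 thymi carried it with the peak at the same place as most of the tumours. Its core, the stretch gained in all 8 lymphomas, ran from 38791444 to 48207470 and averaged 1.38, 2.35, 1.41, 1.89, 1.74, 2.04, 2.05 and 1.34 in lymphomas 1 to 8. Thymi 9, 11 and 14 read 0.82, 1.41 and 0.57, so thymus 11 lay inside the range of the lymphomas and thymi 9 and 14 below it. Thymus 2 read -0.02, within the background range of -0.68 to 0.21, whose low end is thymus 1.

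The highest genes by the lymphoma mean lay together between 40 and 41 Mb. Psmc6, a subunit of the proteasome's regulatory cap, averaged 2.84 ± 0.48 (SD, n = 8) in the lymphomas, with a range of 2.0 to 3.69. It read 0.07, 1.39, 2.36 and 2.30 in thymi 2, 9, 11 and 14, so thymi 11 and 14 lay within the lymphoma range at this gene. Gnpnat1, an enzyme that makes the sugar donor UDP-N-acetylglucosamine, averaged 2.79 ± 0.45 (SD, n = 8) against -0.06, 1.48, 1.77 and 2.06. Ero1a, which drives disulphide formation in the endoplasmic reticulum, averaged 2.75 ± 0.42 (SD, n = 8) against -0.01, 1.35, 2.11 and 2.10.

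Styx, Fermt2, Ptger2, Txndc16 and Ddhd1 followed with lymphoma means of 2.65, 2.61, 2.58, 2.58 and 2.56. Sall2 and Arhgef40, at the receptor end of the amplicon, completed the 10 highest genes with 1.96 and 1.91. Thymus 14 fell away between these ends. It read 2.30 at Psmc6 but 0.47 at Sall2 and -0.11 at Arhgef40, whereas thymus 11 still read 1.61 and 1.32 there.

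The highest segment of at least 20 probes overlapped in 9 arrays from 40590185 to 40701977, a stretch of 112 kb that holds probes of Ero1a, Psmc6, Styx and Gnpnat1. These 9 arrays were lymphomas 1, 3, 5, 6, 7 and 8 and thymi 9, 11 and 14. In lymphoma 2 the highest segment, at 3.90, lay inside Tcra/Tcrd, and in lymphoma 4 it lay at its edge, from 47159598 to 48551038, at 2.25. Peak segments of the thymi were 1.35 in thymus 9, 2.16 in thymus 11 and 1.93 in thymus 14, and those of the 6 lymphomas that shared this place ran from 2.49 to 3.25.

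The megabase steps of the amplicon show how the sides part. In the step that begins at 40 Mb the lymphomas had 2.62 ± 0.42 (SD, n = 8) and thymi 9, 11 and 14 had 1.44, 1.97 and 1.86. In the step that begins at 46 Mb the lymphomas had 1.60 ± 0.48 (SD, n = 8), while thymus 11 kept 1.27, thymus 9 had 0.67 and thymus 14 had 0.25. The called gain of thymus 14 ended at 47205139, ahead of the locus, whereas that of 7 of the 8 lymphomas and of thymi 9 and 11 ended inside it. The last called segment of thymus 14 averaged 0.27, close to the limit of 0.25. In the step that begins at 47 Mb thymus 14 still had 0.20, so its called end is not read as a break. In lymphoma 7 the last gained segment ended at 49802448, beyond the locus.

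On its far side the gain continued over Nrg3 in most lymphomas. Nrg3, a neuregulin ligand of ErbB receptors, with 144 probes from 35794250 to 36888269, read 1.34, 0.32, 0.33, 2.21, 0.89, 1.79, 0.21 and 1.0 in lymphomas 1 to 8. It read -0.17, -0.06, 0.33 and -0.12 in thymi 2, 9, 11 and 14 and at most 0.07 in the other 10. Gains from 32497223 to 36280957 were called over most of that stretch in 6 lymphomas, numbers 1, 2, 4, 5, 6 and 8, and in none of the 14 thymi without findings. In thymus 11 that stretch averaged 0.23, just under the limit for a call, and called gains flanked it, up to 32487856 on one side and from 36291628 to 36475666, inside Nrg3, at 0.84 on the other. The Nrg3 mean of thymus 11 equalled those of lymphomas 2 and 3 within 0.01. Nrg3 was named here after its values were seen.

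**Figure D1:**
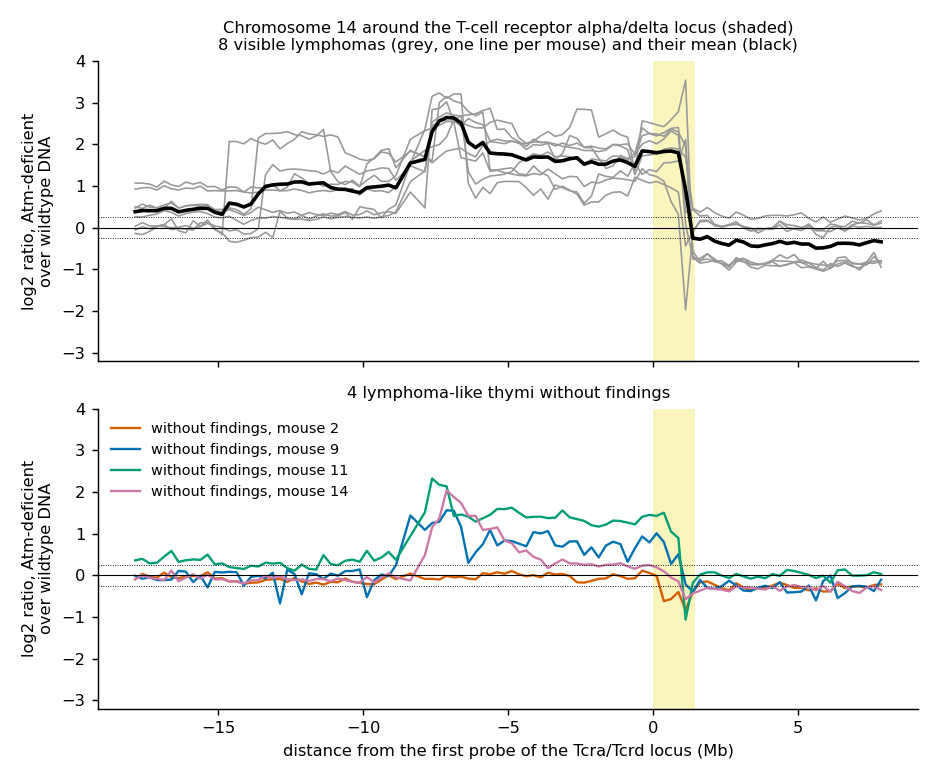
Median log2 ratio of Atm-deficient over wildtype DNA in steps of 0.25 Mb (vertical axis) against the distance in Mb from the first probe of Tcra/Tcrd (horizontal axis, locus shaded, dotted lines at ±0.25). The upper panel shows 8 lymphomas in grey with their mean in black, the lower panel thymi 2, 9, 11 and 14. The peak between 40 and 41 Mb is shared by thymi 9, 11 and 14, and thymus 2 stays near 0 up to the locus.

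Beyond the start of Tcra/Tcrd all 4 thymi carried losses. Segments of at least 20 probes lost beyond the start of the locus summed to 46.8, 70.6, 41.2 and 70.5 Mb in thymi 2, 9, 11 and 14. In lymphomas 1 to 8 the sums were 0.153, 21.2, 70.2, 10.6, 42.5, 70.2, 0 and 0.240 Mb, so thymi 2 and 11 lay within the lymphoma range and thymi 9 and 14 just above its top. Thymi 9 and 14 lost the rest of the chromosome to its last probe at a shallow level, in segments of -0.34 in thymus 9 and of -0.35 and -0.34 in thymus 14.

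Distal to the receptor locus, thymus 11 read close to lymphomas 3, 5 and 6 at Dach1 and Nalcn. Dach1, a transcriptional cofactor, read -1.06, -1.0 and -0.94 in lymphomas 3, 5 and 6 and -0.38, -0.19, -0.99 and -0.34 in thymi 2, 9, 11 and 14. Nalcn, a sodium leak channel, read -0.84, -1.02 and -0.90 in those lymphomas and -0.29, -0.44, -0.91 and -0.31 in the thymi. Both genes lay between -0.23 and 0.21 in the other 5 lymphomas. The retinoblastoma gene Rb1, a brake on the cell cycle, was lost in lymphomas 3 and 6, with -0.70 and -0.84, and lay in lost segments of thymi 9 and 14, with -0.38 and -0.24, but read 0.13 in thymus 11.

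V-to-J joining deletes DNA within Tcra/Tcrd, and the wildtype reference is thymic DNA too. Of the 100 kb steps through the locus, in the step that starts 1200 kb into the locus, thymi 2 and 11 read -2.95 and -2.59 and lymphoma 8 read -2.84, while lymphomas 2 and 5 read 3.91 and 2.66. Thymi 9 and 14 read -0.33 and -0.76, within the background range of -1.34 to 0.56. The sides overlapped at this step.

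The chromosome 12 loss, present at its distal end in all 8 lymphomas, was shallower in the thymi. Its core from 112857418 to 117798928 averaged -0.37, -0.93, -0.84, -0.98, -0.96, -0.83, -0.87 and -0.89 in lymphomas 1 to 8. It averaged -0.43, -0.30, -0.61 and -0.23 in thymi 2, 9, 11 and 14 and no lower than -0.21 in the other 10. Lymphoma 1 was as shallow as the thymi, and the other 7 lymphomas lay below all 4. A loss was called over the core in thymi 2 and 11 only.

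The 10 genes with the lowest lymphoma means on chromosomes 12 and 14 all lay on chromosome 12. Cdca7l, a Myc-interacting nuclear protein, averaged -0.93 ± 0.22 (SD, n = 8) and read -0.52, -0.17, -0.79 and -0.30 in thymi 2, 9, 11 and 14. Sp4, a zinc finger transcription factor, averaged -0.86 ± 0.17 (SD, n = 8) and read -0.47, -0.16, -0.76 and -0.27. Rapgef5, Dnah11, Zfp386, Ptprn2, Vipr2 and Ncapg2 lie in the same distal stretch and had lymphoma means of -0.77 to -0.85. With normexp background correction the lymphoma mean of Sp4 was -0.45 and that of Ptprn2 was -0.43.

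Wars and Yy1, proximal to Igh, parted thymus 2 from the rest. Wars, the tryptophan tRNA synthetase, averaged -0.82 ± 0.27 (SD, n = 8) in the lymphomas and read 0.36, -0.21, -0.66 and -0.45 in thymi 2, 9, 11 and 14. Yy1, a zinc finger factor, averaged -0.78 ± 0.18 (SD, n = 8) and read 0.33, -0.26, -0.56 and -0.53. Bcl11b, the transcription factor that fixes T-cell identity, read -0.13 in lymphoma 1 and -0.61 to -0.83 in the other 7. It read -0.21, -0.21, -0.54 and -0.48 in thymi 2, 9, 11 and 14, so thymus 14, which missed the chromosome 12 limit of the rule, carried a loss over Bcl11b. That loss ran from 98702768 to 109953303 and averaged -0.34.

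A break at the same edge of Igh appeared on both sides. In lymphomas 1 and 7 and in thymus 2 a gain ended at 110953367, 110947708 and 110947708, just inside the locus. The gain held Akt1, a kinase of growth factor signalling, at 0.69 in lymphoma 1, 1.26 in lymphoma 7 and 1.34 in thymus 2. The other 6 lymphomas read -0.64 to -0.74 at Akt1, and thymi 9, 11 and 14 read 0.00, 0.17 and -0.33. Right after that edge, in the step of 200 kb that starts 200 kb into the locus, thymus 2 fell to -2.90, below all 8 lymphomas, which ran from -1.21 to -0.04. Thymus 11 read 0.09 in the step before and -0.44 in this one, and its distal loss began at 110958969.

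**Figure D2:**
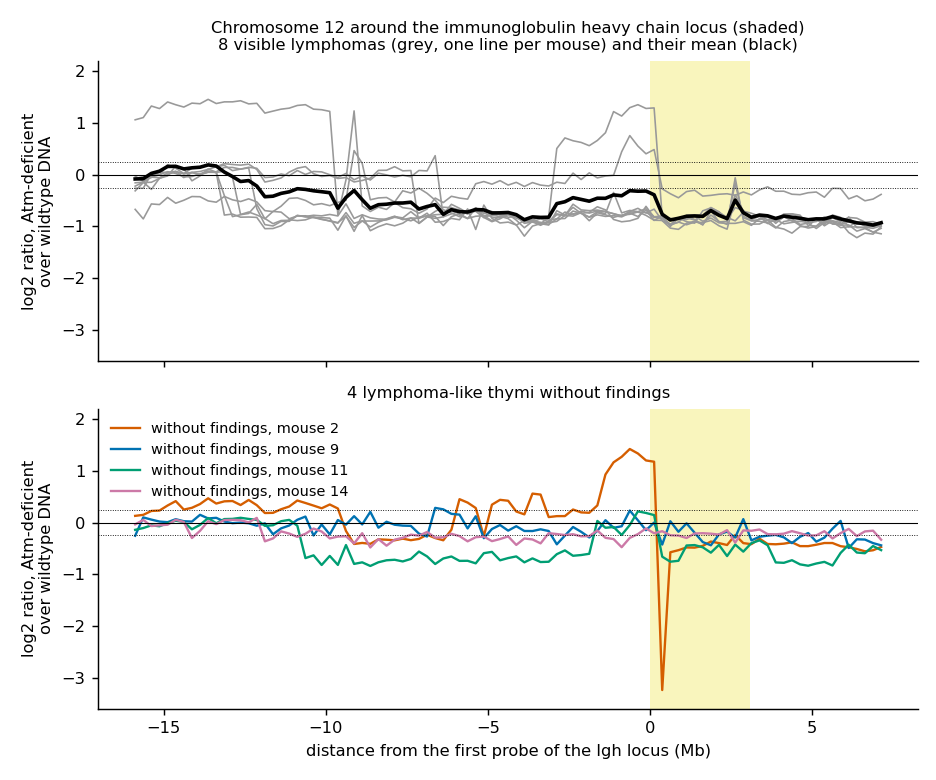
Median log2 ratio of Atm-deficient over wildtype DNA in steps of 0.25 Mb (vertical axis) against the distance in Mb from the first probe of Igh (horizontal axis, locus shaded, dotted lines at ±0.25). The upper panel shows 8 lymphomas in grey with their mean in black, the lower panel thymi 2, 9, 11 and 14. Thymus 2 drops from a gain to its deepest loss at the start of the locus, where lymphomas 1 and 7 leave their gain.

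Expressed as a share of the lymphomas' departure from the wildtype level, each thymus had its own size of change. The ratio minus 1 was averaged over the lymphomas called there and set to 100%. For the chromosome 14 gain, thymi 9, 11 and 14 reached 30.3%, 65.5% and 19.1%. For the distal chromosome 12 loss, thymi 2, 9, 11 and 14 reached 59.3%, 43.3%, 79.8% and 33.5%. For the chromosome 14 loss over Dach1 and Klhl1 they reached 56.8%, 51.3%, 87.1% and 54.4%. The 4 lymphomas averaged for that loss include lymphoma 4 at -0.27, beside -1.03, -0.99 and -0.98 in lymphomas 3, 5 and 6, so these shares are set against a shallower mean.

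Thymus 11 had the largest share in each of these 3 changes. In another chromosome 14 loss, from 76989517 to 78748236, it had the smallest. The share was 21.2%, against 53.1%, 57.2% and 42.8% in thymi 2, 9 and 14. No loss was called there in thymus 11, whose mean of -0.16 lay inside the background range, with its low end at -0.17. The background median was -0.10 there and -0.12 over Dach1 and Klhl1, and the shares were not corrected for it. The shares were not constant within a thymus, and at Gnpnat1 thymus 14 reached 51.2% of the lymphoma departure. In DNA from a whole thymus, fewer altered cells and fewer altered copies per cell cannot be told apart.

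Changes were called recurrent where at least 3 lymphomas shared at least 5 probes of a gain or loss (segment mean beyond 0.25 in size). Over the whole genome this gave 26 regions, 8 gains and 18 losses, and leaving out those in antigen receptor loci left 7 gains and 16 losses. All 7 gains were also called in at least 1 of the 4 thymi and in none of the other 10, and without thymus 11 that count was 4. Of the 16 losses, 14 were called in at least 1 of the 4 thymi, and 11 were called in none of the other 10. Chromosomes 12 and 14 held 10 of the 16, and these 10 were all called in at least 1 of the 4 thymi and in none of the other 10. Those on chromosome 14 are neighbouring stretches distal to Tcra/Tcrd, each called in lymphomas 3, 5 and 6, and do not count as separate events. Outside chromosomes 12 and 14 there were 6 gains, all called in at least 1 of the 4 thymi, and 6 losses, 4 of them so called. Those 4 losses were also called in 5, 4, 2 and 3 of the other 10. Only 1 of the 6 losses was called in none of the other 10, and it was called in none of the 4 thymi. Over the 2 gains on chromosome 7 the other 10 ranged from -1.17 to 0.52 and from -1.39 to 0.37. The regions were chosen on the lymphomas and those on chromosomes 12 and 14 by the rule as well, so these counts carry no test.

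Measured in DNA, 166 Mb was gained in at least 3 lymphomas, and 94.7% of it was also gained in a thymus of the second side. Of the 598 Mb gained in at least 1 lymphoma, 54.9% was. For losses the shares were 97.1% of 66.9 Mb and 24.7% of 405 Mb. These figures include chromosomes 12 and 14, which the rule used. Outside them, 96.7% of the 140 Mb gained in at least 3 lymphomas and 57.2% of the 504 Mb gained in at least 1 was also gained in one of the 4 thymi. Of the 140 Mb, 101 Mb lay on chromosome 15, where the core of the gain was called in thymus 11 only among the 4. The 6 recurrent gains outside chromosomes 12 and 14 were called 3 times in thymus 2, 4 times in thymus 11 and never in thymi 9 and 14. Most DNA lost outside chromosomes 12 and 14 was not shared. Of the 301 Mb lost in at least 1 lymphoma 4.90% was, and of the 31.4 Mb lost in at least 2 it was 19.3%. Of the 0.574 Mb lost in 3 or more, 81.7% was shared. Lymphoma 4 alone had 213 Mb of lost DNA there, so the share of the 301 Mb rests mainly on it. These shares were not tested.

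The share was also read from each thymus. Outside chromosomes 12 and 14, 67.7% of the altered DNA of thymus 2, 46.7% of that of thymus 9, 87.2% of that of thymus 11 and 35.2% of that of thymus 14 was altered in the same direction in at least 1 lymphoma. For each lymphoma set against the other 7, the share ran from 41.25% in lymphoma 4 to 94.9% in lymphoma 1. The ranges overlapped.

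In the chromosome 1 gain thymus 11 read higher than all 8 lymphomas. Its core from 168877001 to 180923868 averaged -0.03, 0.00, 0.58, 0.53, 0.54, 0.50, 0.02 and 0.45 in lymphomas 1 to 8 and 0.55, -0.04, 0.78 and 0.00 in thymi 2, 9, 11 and 14. The other 10 lay between -0.03 and 0.04. Ncstn, which encodes nicastrin of the gamma-secretase complex, lies in it and read 0.64 in thymus 2 and 0.99 in thymus 11, against 0.50 to 0.77 in the 5 lymphomas with the gain. Smyd3, a lysine methyltransferase with 74 probes, read 0.57 and 0.73 in thymi 2 and 11.

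Notch1, the receptor that drives thymocytes into the T lineage, lay partly in a chromosome 2 stretch gained in lymphomas 1 to 4. The shared core covers the first 2 of its 6 probes, and over the middle of the gene a gain was called in 3 lymphomas, numbers 1 to 3. The core from 26400799 to 26473212 averaged 2.32, 0.85, 1.66, 0.78, 0.10, 0.01, 0.18 and 0.32 in lymphomas 1 to 8. Thymi 2, 9, 11 and 14 read 0.13, 0.00, 0.41 and -0.05, and the other 10 reached 0.04 at most. Over the 6 probes of the gene thymus 2 averaged 0.49 and thymus 11 averaged 0.67, above the highest of the other 10 at 0.21 and above lymphoma 4 at 0.30. Thymus 11 had a smaller value over the core than the 4 lymphomas called. Adjoining gained segments of thymus 11 ran from 5650560 to 34509246, those of lymphoma 2 from 3010301 to 40447809 and those of lymphoma 1 from 3010301 to 26501946. In lymphoma 4 the gained segment measured 0.0724 Mb.

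In lymphomas 1 and 4 the gained segment ended inside Notch1. In lymphoma 4 the first 2 probes read 0.68 and 0.58 and the next 3 read 0.13, 0.04 and -0.02. In lymphoma 1 the end lay further along. The probe at 26501891 read 1.93 and the next, at 26508889, read 0.25. In lymphoma 2 the same probes read 0.83 and 0.81, and in lymphoma 3 they read 2.57 and 1.32. Notch1 is on the minus strand in RefSeq, so the second probe lies on the 5′ side of the first. Thymus 11 read 1.0 and 0.30 at these probes and the other 10 reached 0.81 and 0.34, so no step was read in it.

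On chromosome 4, called gains of lymphomas 4, 7 and 8 overlapped from 128918449 to 129116222, a stretch that holds the T-cell kinase gene Lck. The 3 lymphomas read 0.48, 0.28 and 0.35 over this overlap. Thymus 11 read 0.33 there and thymi 2, 9 and 14 read 0.19, 0.08 and -0.22. The gained segment over Lck measured 17.7 Mb in lymphoma 4, 13.7 Mb in lymphoma 8 and 12.5 Mb in thymus 11. Only in lymphoma 7 was it small, with 0.198 Mb. The values lay close to those of lymphomas without a call, which reached 0.30, and to the highest of the other 10, with 0.26.

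**Figure D3:**
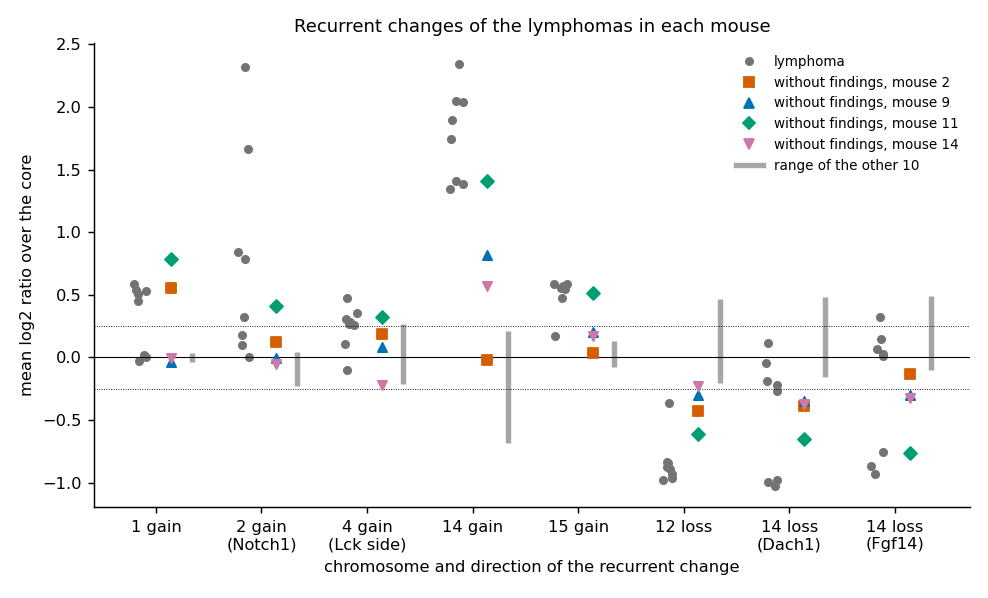
Mean log2 ratio over the core of 8 recurrent changes (vertical axis, dotted lines at ±0.25) by chromosome and direction (horizontal axis), with grey points for the 8 lymphomas, coloured symbols for thymi 2, 9, 11 and 14 and a grey bar for the range of the other 10. Thymus 11 lies within or beyond the called lymphomas on chromosomes 1, 14 and 15, and thymi 9 and 14 lie between 0 and the lymphomas in most changes.

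A chromosome 15 gain was called in 7 lymphomas and in thymus 11. The medians over the whole chromosome were 0.53, 0.42, 0.52, 0.54, 0.57, 0.51, 0.47 and 0.15 in lymphomas 1 to 8 and 0.00, 0.15, 0.47 and 0.21 in thymi 2, 9, 11 and 14. Lymphoma 8 thus lay among the thymi, and thymus 11 among the lymphomas. The other 10 reached 0.17, in thymus 7. The lymphomas averaged 0.46 ± 0.13 (SD, n = 8) and the thymi 0.21 ± 0.19 (SD, n = 4), a difference of 0.26.

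In an exact two-sided permutation test over all splits of these arrays the chromosome 15 difference had p = 0.0182, and p = 0.189 after Benjamini-Hochberg adjustment over the 17 autosomes tested. It did not pass. None of the 17 autosomes did, and chromosome 11, with a difference of 0.04, had the same adjusted p of 0.189 in the exact permutation test. With the scan batch as a block the chromosome 15 difference was 0.19, and within batches it was 0.53 in batch 1 and -0.18 in batch 5. Without thymus 9 it was 0.24, and without thymi 2 and 9 it was 0.13.

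Genes on chromosome 15 differed in how the mice were ordered. Il7r, the receptor for the thymocyte survival factor interleukin 7, averaged 0.50 ± 0.28 (SD, n = 8) in the lymphomas and read 0.22, 0.06, 0.69 and 0.23 in thymi 2, 9, 11 and 14. A gain over it was called in 5 lymphomas, and lymphomas 2 and 7, with 0.20 and 0.04, lay among or below the thymi. Xrcc6, the Ku70 subunit that binds broken DNA ends, averaged 0.64 ± 0.21 (SD, n = 8) and read 0.18, 0.30, 0.70 and 0.37. Myc has 1 probe here, which scattered from -1.25 to 1.84 among the lymphomas. Over the chromosome 15 core from 50565522 to 80076372, thymi 9, 11 and 14 reached 32.3%, 92.5% and 27.05% of the departure of the 7 lymphomas called, and thymus 2 reached 4.79%.

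The amount of altered DNA outside chromosomes 12 and 14 varied as much among the thymi as between the sides. It was 159, 236, 185, 382, 199.999, 159, 97.9 and 172 Mb in lymphomas 1 to 8 and 96.9, 35.5, 315 and 52.6 Mb in thymi 2, 9, 11 and 14. The other 10 had a median of 0.990 Mb and a highest value of 45.1 Mb. Thymus 11 exceeded all lymphomas except number 4, thymus 2 lay just below the lowest lymphoma, and thymi 9 and 14 lay near the top of the other 10. Segments with means under 0.25 in size do not count toward these sums, so shallow changes are left out of them.

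The lymphomas averaged 198.9 ± 83.7 Mb (SD, n = 8) and the thymi 125 ± 129 Mb (SD, n = 4). The difference of 73.8 Mb had p = 0.265 in the exact two-sided permutation test and p = 0.529 after adjustment over 4 measures. Gained DNA differed by 57.7 Mb (adjusted exact permutation p = 0.529), lost DNA by 16.2 Mb (adjusted exact permutation p = 0.960) and the number of segments by 9.88 (adjusted exact permutation p = 0.816). These tests did not pass, and with 8 against 4 the smallest p is 0.00202.

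Without thymus 11 the tests of altered and of gained DNA passed. The differences were 137 Mb and 121 Mb, each with an adjusted p of 0.0485 in the exact permutation test, and all 3 remaining thymi were at or below 96.9 Mb altered. Lost DNA was 20.3, 27.5, 24.3 and 29.4 Mb in thymi 2, 9, 11 and 14 against 1.01 to 26.3 Mb in 7 lymphomas and 213 Mb in lymphoma 4. In batch 1 the lymphomas exceeded thymus 2 by 145 Mb of altered DNA, and in batch 5 the difference of lymphoma 8 from the mean of thymi 11 and 14 was -11.6 Mb. Without thymus 9 the altered and the gained DNA differed by 44.0 and 27.1 Mb, the lost DNA by 16.9 Mb and the number of segments by -5.29. Without lymphoma 4 the lost DNA differed by -8.34 Mb. Without thymi 2 and 9 the altered DNA differed by 14.96 Mb.

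**Figure D4:**
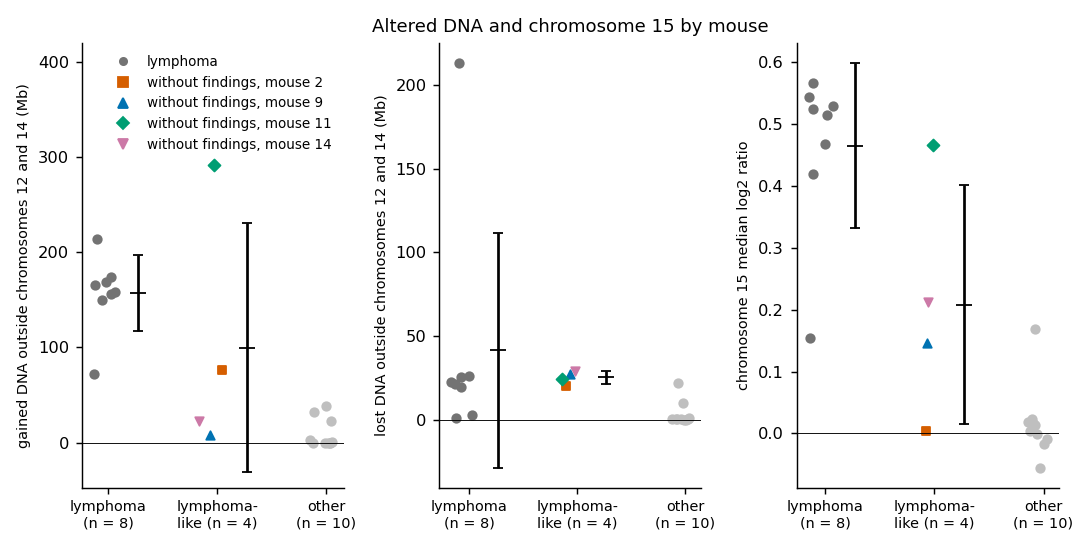
Gained DNA and lost DNA outside chromosomes 12 and 14 in Mb, and the median log2 ratio of chromosome 15 (vertical axes), for lymphomas (n = 8), the 4 lymphoma-like thymi (coloured symbols) and the other 10 thymi (light grey). Black bars are the mean and SD. Thymus 11 has the most gained DNA, with 291 Mb, and lymphoma 4 the most lost DNA, with 213 Mb.

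Across genes, limma called none of the 12986 genes with at least 3 probes different between the sides at an adjusted p under 0.05, and the share called was 0%. At an unadjusted p under 0.05 there were 840 genes, 6.47% of those tested, and 690 outside chromosomes 12 and 14, 5.77% of 11958. The smallest adjusted p was 0.425. Of the 529 genes on chromosome 15, 293 had an unadjusted p under 0.05, all with the higher mean in the lymphomas. These 293 are among the 840, lie on 1 chromosome gained in most lymphomas, and do not count as separate results. Without lymphoma 8 the limma fit called 1 gene, Eif3d on chromosome 15, a subunit of translation initiation factor eIF3, at a difference of 0.69 with an adjusted p of 0.00307. Without lymphoma 1 it called 6 genes, all on chromosome 12, which the rule had used.

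Of 38 genes listed for T-cell lymphoma, 34 are on the array and 27 could be tested. None passed in limma, and 3 had an unadjusted p under 0.05. The median difference of these 27 was 0.07, beside 0.04 over all genes tested. By segments, 13 of the 34 were gained and 5 lost in at least 1 lymphoma, 9 gained and 4 lost in at least 1 of the 4 thymi, and 8 gained and 2 lost on both sides. Over the midpoints of all 24618 autosomal genes the same calls covered 29.2% and 9.44% in lymphomas, 19.1% and 7.66% in the thymi, and 16.7% and 3.45% on both sides.

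Runx1 and Cdkn2a lay in called segments of lymphomas and of none of the 4 thymi. Runx1, a haematopoietic transcription factor, read 1.91 in lymphoma 1, at most 0.29 in the other 7, and 0.15, 0.41, -0.07 and -0.31 in thymi 2, 9, 11 and 14.

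Cdkn2a, which encodes the cell cycle inhibitors p16Ink4a and p19Arf, read -1.02 in lymphoma 3 and 0.48 in lymphoma 2. In the 4 thymi it lay between -0.03 and 0.16. Among the background thymi a loss over Cdkn2a was called in 1, and the lowest gene mean was -0.51. The Runx1 gain and the Cdkn2a loss were each found in 1 lymphoma of 8.

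Ikzf1, the gene of the lymphoid factor Ikaros, was the reverse case. Its gene mean was -0.77 in thymus 2, -0.27, 0.04 and 0.21 in thymi 9, 11 and 14, and between 0.03 and 0.28 in all 8 lymphomas. In thymus 2 it lay in a lost segment from 6527756 to 12226416 at -0.95, part of a loss that covered chromosome 11 from 3152146 to 21031097 at -0.94 on average. A segment called lost in thymus 11, from 9006321 to 12385349 at -0.36, also spans the gene, although the mean of its own 11 probes was 0.04. Polm, a polymerase of end joining, lies in the same loss of thymus 2 with 2 probes at -0.61.

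Neither the 12 genes of V(D)J recombination and end joining nor the 14 genes of DNA break signalling gave a gene that passed. Of the first, 7 could be tested, and of the second 12 are on the array and 11 could be tested, and in limma none passed and none had an unadjusted p under 0.05. Their median differences were 0.06 and -0.01. In the first list 2 genes were gained and 1 lost in a lymphoma, and 1 gained and 2 lost in a thymus of the second side. In the second list 2 were gained and none lost in a lymphoma, and 1 gained and 3 lost in a thymus. The shares over all genes were those given above, 29.2% gained and 9.44% lost in a lymphoma and 19.1% gained and 7.66% lost in a thymus. Brca2, a homologous recombination factor on chromosome 5, read 0.64 in lymphoma 6 and 0.56 in thymus 11.

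**Figure D5:**
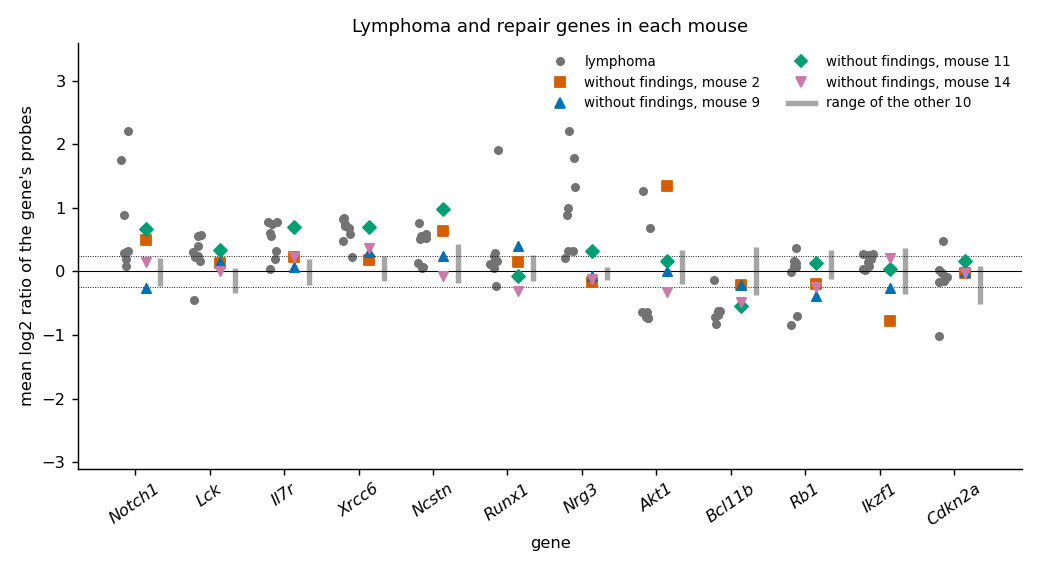
Mean log2 ratio of the probes of 12 genes (vertical axis, dotted lines at ±0.25) in each mouse, with grey points for the 8 lymphomas, coloured symbols for thymi 2, 9, 11 and 14 and a grey bar for the range of the other 10. Runx1 in lymphoma 1 (1.91) and Ikzf1 in thymus 2 (-0.77) stand apart.

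Changes shared by tumours and called in none of the 14 thymi without findings were the smaller part. Of the 300 Mb gained in at least 2 lymphomas, 51.8 Mb was gained in none of these thymi. Of the 123 Mb lost in at least 2 lymphomas, 29.4 Mb was lost in none of them. These amounts include chromosomes 12 and 14. Stretches of at least 1 Mb called in 2 or more lymphomas and in none of these thymi lay on chromosomes 2, 4, 8, 11, 12, 14, 15, 16, 17 and 19. Besides the stretch that ends inside Nrg3, where thymus 11 has gains on both sides, the most frequent was the start of chromosome 15 from 3004549 to 7592006, gained in lymphomas 1, 3, 4, 5 and 6 and averaging 0.15 in thymus 11 and 0.18 in thymus 14. It holds Ghr, the growth hormone receptor gene.

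On chromosome 16, lymphomas 1 and 8 shared gains from 65828317 to 74477350 and from 74675433 to 92187778, over which the highest of the 4 thymi read 0.07 and 0.14. The end of chromosome 4 beyond 150051174 was lost in lymphomas 2 and 8. It holds Trp73, a relative of the tumour suppressor p53.

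Stretches of at least 1 Mb called in the 4 thymi but in no lymphoma were each, over most of their length, called in 1 thymus of the 4. Chromosome 11 is in part an exception, because the called loss of thymus 11 over Ikzf1 lies within that of thymus 2. Besides the chromosome 11 loss, thymus 2 had gains over much of chromosome 12 between 3013769 and 82031548, where stretches averaged 0.26 to 0.77. Thymus 11 gained chromosome 1 from 104072122 to 118148571 at 0.44, a stretch with Bcl2, the inhibitor of apoptosis, which read 0.59 there. Thymus 11 also lost chromosome 16 from 5138889 to 13479117 at -0.31.

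Thymus 14 gained chromosome 9 from 5558291 to 13112226 at 0.56 and lost it from 47125007 to 59830904 at -0.32. Thymus 9 lost chromosome 8 from 18527384 to 26070018 at -0.31. The chromosome 9 gain was also called in 1 of the other 10. Over these stretches the lymphoma means lay between -0.13 and 0.07.

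At the antigen receptor loci that the rule did not use, no difference between the sides passed the test. Relative to 1 Mb on each side, the T-cell receptor beta locus Tcrb read 0.20, -1.69, 0.64, 0.21, -1.40, -0.41, -0.37 and -0.39 in lymphomas 1 to 8 and 0.20, -0.42, -0.31 and -0.18 in thymi 2, 9, 11 and 14. The lymphomas spanned a wider range than the thymi, and that of the other 10 was -0.60 to 0.47. The difference of -0.22 had an adjusted p of 0.798 in the exact permutation test over Tcrb, Tcrg and the light chain locus Igk. Tcrg differed by 0.05 and Igk by -0.03, with the same adjusted exact permutation p of 0.798.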

How the data were processed

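DNA of thymocytes from 22 mice was measured by 2-colour array CGH. The submitters' processing notes name Agilent Feature Extraction 9.1, and per the file headers it was 9.1.3.1. The deposited scanner files give the intensity of both dyes. Their processed signals had background removed and dyes balanced before deposit, per the file headers. The deposited value table gives log10 of red over green and equalled the scanner files' log ratio, with a largest difference of 0. Direction follows the labelled dyes.

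From the deposited processed intensity, log2 of red over green was taken at 238202 spots. Outlier spots were left out, repeat spots averaged and each array centred on its autosomal median, with no loess or quantile step. Of 235402 probes, 232626 have a position and 220065 are autosomal, spaced by 7850 bp (median). Segments came from optimal partitioning (Python 3.11.15, numpy 2.4.6, numba 0.67.0) with at least 5 probes, outliers limited at 4 noise SD from a running median over 7 probes, and a penalty of 3 noise variances per log probe count. Means beyond 0.25 in size were called. Altered DNA leaves out segments mostly in receptor loci or called alike in at least 11 arrays. Of 25810 gene names in the files, a RefSeq table (GRCm38.p6, names only) held 12191 as symbols and 3604 as synonyms, and 10014 were kept as deposited.

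Means of the sides were compared by exact two-sided permutation tests, and genes by limma 3.58.1 in R 4.3.3, with Benjamini-Hochberg adjustment. Segmentation and limma were tested on simulated data. With 1 mouse per array, precision is set by how many arrays there are. The 12 arrays, the gene lists and the tests were chosen with earlier results of these data known. Genes named are the 10 highest and 10 lowest on chromosomes 12 and 14 by lymphoma mean, the genes of 3 lists, the best-covered genes of recurrent regions, and any past the test outside chromosomes 12 and 14, of which there were none. 1 gene of these lists is not reported here. Normexp, an alternative, was run on median signals with an offset of 50 in place of the mean signals first planned. Other alternatives changed the centring, spot filter, dye direction of thymus 9, segment limits, penalty, batch term, arrays and rule.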

Additional observations from a re-analysis of the deposited data

Results flagged for a closer look

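In 26 groups of 4 or 8 values examined, 7 single values lay apart from their group by Dixon's test, and chance alone marks about 1 group in 20. Among the lymphomas these were the gained DNA of number 7, low at 72.5 Mb, the lost DNA of number 4, high at 213 Mb, the chromosome 15 median of number 8, low at 0.15, and the Tcrg locus of number 2, low at -0.75 relative to its flanks. The gene means that lay apart were Runx1 in lymphoma 1 at 1.91 and Cdkn2a in lymphoma 3 at -1.02. Among the 4 lymphoma-like thymi the Cdkn2a mean of thymus 11, at 0.16, lay apart from 3 values near 0.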

How the results depend on the processing

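Of the differences between the sides, those in altered segments, in lost DNA and at Tcrg and Tcrb turned their sign under some settings, and none of those passed a test. The difference in segments was -16.8 with normexp background correction and -29.1 with the scan batch as a block. The Tcrg difference was -0.034 with the dye direction of thymus 9 turned, and the Tcrb difference was 0.013 with the batch block. Requiring 5 lymphomas in place of 3 left 11 recurrent regions. Leaving out 1 array at a time gave 44.0 to 137 Mb for altered DNA, 27.1 to 121 Mb for gained DNA, -8.34 to 21.97 Mb for lost DNA (negative without lymphoma 4) and -5.29 to 27.04 for segments (negative without thymus 9). It gave 0.19 to 0.34 for the chromosome 15 median, -0.37 to -0.04 for Tcrb, 0.00 to 0.14 for Tcrg, -0.04 to -0.01 for Igk, 0 to 1 genes outside chromosomes 12 and 14, 4 to 7 shared recurrent gains and 11 to 14 shared losses. The causes were not tested. Of 545 gene means recomputed for 109 genes, 521 moved by less than 1 SD and 24 by more, all under normexp, and 0 turned their sign. No paired analysis was possible because the replicate numbers are given in accession order and pair no samples. Adding thymus 1 with its sign turned, a setting chosen after seeing the data, gave 90.97 Mb for altered DNA and 0.29 for the chromosome 15 median, and neither passed. Leaving out thymi 2 and 9 together was also chosen after seeing the data. Thymus 9 has the noisiest array compared.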
